A study of Rattus norvegicus with 2 samples.

Results

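Genes of oxidative phosphorylation were examined in the esophagus of rats dosed with OSU-HDAC42, an HDAC inhibitor, or with vehicle. The rule that defines the set uses gene names and no measured value. It takes genes whose current symbol begins with Ndufa, Ndufb, Ndufc, Ndufs, Ndufv, Uqcr, Cox4i, Cox5, Cox6, Cox7, Cox8 or Atp5 followed by a letter, plus Sdha, Sdhb, Sdhc, Sdhd, Cyc1 and Cycs, without the Ndufaf assembly factors. It holds 81 of the 14217 genes that had a probe set naming 1 gene. Of these, 34 belong to complex I, 4 to complex II, 8 to complex III, 19 to complex IV and 16 to complex V. Where a gene had several probe sets, the one brightest on average over both arrays stands for it.

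Mitochondrial oxidative phosphorylation passes electrons from NADH and succinate through complexes I to IV to oxygen and uses the resulting proton gradient to drive ATP synthase, complex V. Most subunits have 1 form in all tissues, but a few subunits of complex IV, cytochrome c oxidase, have a form made chiefly in striated muscle. In rodents these forms are encoded by Cox6a2, Cox7a1 and Cox8b, and the forms of other tissues by Cox6a1, Cox7a2 and Cox8a. The rat esophagus combines squamous epithelium with a coat of skeletal muscle, so both kinds of isoform can occur in it.

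The animals were male Sprague-Dawley rats, an outbred strain, bought at an age of 5 to 6 weeks. OSU-HDAC42, which inhibits histone deacetylases, or vehicle was given by gavage in 7 doses, each of 50 mg/kg body weight for the inhibitor and 350 mg/kg in total, and the esophagus was collected on day 15, which was 24 hours past the final dose. Each of the 2 groups has 1 Affymetrix Rat Genome 230 2.0 array, and the labels do not say whether it held RNA of 1 rat or of several, nor which layers of the esophagus were taken. There were thus no replicates, no p-value is given, and no difference below has an error between rats. Differences are given on the log2 scale and are negative where the OSU-HDAC42 array was dimmer.

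A gene was described as measured above the floor when its brighter array reached an intensity of 49.1, the median over probe sets, and 9560 genes did. Of the 81 members, 78 did. The other 3 were Cox4i2, an isoform best known from lung, at 25.2 and 24.2, Cox7b2, at 6.81 and 7.32, and the pseudogene Cox6c-ps1, at 13.3 and 17.6, the inhibitor array being named first. The only available measure of error is how far probe sets of 1 gene differ, an SD of 0.29 on the log2 scale over 2126 genes, which covers probe noise alone. The labelled tissue was borne out by its epithelial markers, since Krt13 and Krt4, keratins of the esophageal lining, stood at 14438 and 11052 with the inhibitor and at 14947 and 11517 with vehicle. The ratio of 3' to 5' signal in the control transcripts is a measure of RNA quality. With the inhibitor first, it was 6.29 against 7.76 for beta-actin, 2.09 against 2.32 for GAPDH and 7.18 against 5.66 for hexokinase. The 3' signal exceeded the 5' signal on both arrays, and the ratios differed between arrays in both directions. The part of RNA quality in the differences below was not tested.

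Of the muscle isoforms of cytochrome c oxidase, Cox6a2 and Cox8b had the largest differences of all members and were lower with the inhibitor. The third, Cox7a1, was dim and reached the floor only on the OSU-HDAC42 array, where it was brighter. The stretches before the starts of these muscle isoforms are shown to describe their sequence. For comparison the stretch of Cox8a, the common partner of Cox8b, is given too. Each runs 5′ to 3′ on the gene's strand over the 250 bases before the RefSeq start in the GRCr8 assembly. Capitals mark matches on either strand to the E-box CAGCTG, the TATA box TATAAA, the ETS core CCGGAAG or the MEF2 consensus. CAGCTG is a form of the E-box, the element bound by myogenic factors, and other forms were neither searched nor marked. The MEF2 site is the element of another muscle regulator, and its search was added after the sequences were seen.
Cox6a2: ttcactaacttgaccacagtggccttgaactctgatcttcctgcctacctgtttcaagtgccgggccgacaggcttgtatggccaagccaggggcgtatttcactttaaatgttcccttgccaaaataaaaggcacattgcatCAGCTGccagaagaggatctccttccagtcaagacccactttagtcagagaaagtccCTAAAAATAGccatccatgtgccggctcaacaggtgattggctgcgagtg
Cox8b: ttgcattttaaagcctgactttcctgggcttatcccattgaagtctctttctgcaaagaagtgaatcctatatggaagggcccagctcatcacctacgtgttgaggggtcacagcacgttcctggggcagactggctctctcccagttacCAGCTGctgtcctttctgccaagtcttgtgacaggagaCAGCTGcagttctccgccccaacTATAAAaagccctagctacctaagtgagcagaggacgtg
Cox7a1: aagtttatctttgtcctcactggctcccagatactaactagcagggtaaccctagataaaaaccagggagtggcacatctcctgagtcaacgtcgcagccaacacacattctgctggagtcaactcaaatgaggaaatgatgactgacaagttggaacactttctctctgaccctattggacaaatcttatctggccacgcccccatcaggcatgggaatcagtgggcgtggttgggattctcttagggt
Cox8a: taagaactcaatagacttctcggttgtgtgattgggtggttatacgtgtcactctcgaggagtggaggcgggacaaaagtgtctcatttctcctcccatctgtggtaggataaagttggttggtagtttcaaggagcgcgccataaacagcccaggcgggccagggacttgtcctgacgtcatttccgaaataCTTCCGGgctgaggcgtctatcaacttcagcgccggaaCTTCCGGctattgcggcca
The Cox6a2 stretch is chr1:192219717-192219966 on the minus strand, with an E-box beginning 107 bases and a MEF2 match beginning 50 bases before the start. The Cox8b stretch is chr1:205408274-205408523 on the minus strand, with E-boxes beginning 100 and 62 bases and a TATA box beginning 39 bases before the start. The Cox7a1 stretch, chr1:94568966-94569215 on the plus strand, held none of the motifs in the forms searched. In the Cox8a stretch, chr1:213833624-213833873 on the minus strand, 2 ETS cores began 57 and 19 bases before the start. None of these matches overlaps another. They are matches of letters, and no binding was measured. The E-box form CAGCTG was also in 12.8% of all measured genes with a promoter. Whether motifs go with the direction of the differences was not tested.

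Cox6a2, the striated muscle form of a small regulatory subunit, stood at 142 with OSU-HDAC42 and at 438 with vehicle. That is 3.08-fold lower with the inhibitor, a difference of -1.62. Its common partner Cox6a1 stood at 2999 against 2328, a difference of 0.37 in the other direction. Relative to Cox6a1, Cox6a2 was 3.97-fold lower with the inhibitor.

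Cox8b, the muscle form of the smallest subunit family, stood at 201 against 627. It was 3.12-fold lower, a difference of -1.64 and the most negative of all members. Its common partner Cox8a stood at 1567 against 1797, a difference of -0.20. Relative to Cox8a, Cox8b was 2.72-fold lower.

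Cox7a1, the third muscle form, was higher with the inhibitor. It stood at 93.2 with OSU-HDAC42 and at 44.1 with vehicle, 2.11-fold higher with a difference of 1.08, and only the first value reaches the floor, so it counts among the members above the floor through the array on which it is high. Its common partner Cox7a2 was not analysed here, because its probe set names another gene as well. Cox7a2l, a related gene whose product takes part in joining complexes III and IV, stood at 3010 against 2757, a difference of 0.13.

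**Figure D1:**
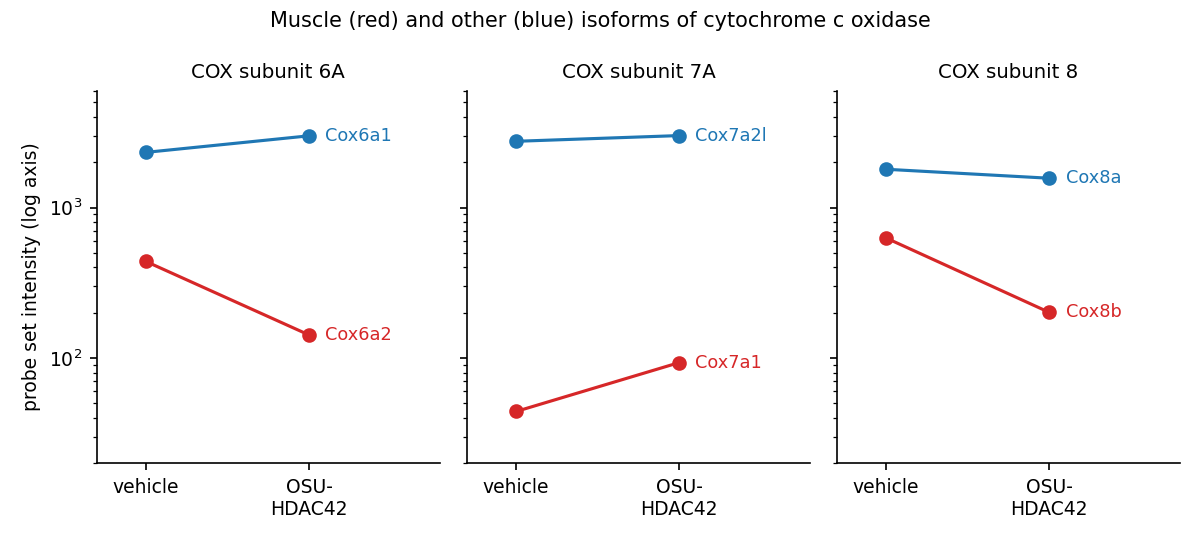
Probe set intensity on a log axis on the vehicle and OSU-HDAC42 arrays for 3 subunit families of cytochrome c oxidase, with 1 array per point. Muscle isoforms are in red and other genes of the family in blue. The blue gene beside Cox7a1 is the related Cox7a2l, because Cox7a2, the common partner of Cox7a1, was not analysed. Cox6a2 and Cox8b were 3.08-fold and 3.12-fold lower on the OSU-HDAC42 array. Cox7a1, whose vehicle value of 44.1 lies under the floor of 49.1, was 2.11-fold higher. The genes in blue differed by 0.37 or less on the log2 scale in either direction. Slopes can be compared between genes, heights cannot.

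Markers of muscle differed too. Of 15 listed markers of skeletal muscle fibres 14 were measured, and all 14 were lower after OSU-HDAC42, by a median of -1.19, a range from -2.09 to -0.051 and a summed intensity of 15457 against 30142. Among them were Ckm, the creatine kinase of muscle, at 646 against 1783, and the calcium pump Atp2a1 at 343 against 1138. Pvalb, the calcium buffer parvalbumin, differed by only -0.051 and the myosin chain Myh1 by -0.29. All 8 smooth muscle markers were higher, with a median of 0.62 and a summed intensity of 11007 against 6815. Of 8 squamous epithelium markers 7 were lower, with a median of -0.068, a range from -0.69 for the envelope protein Evpl to 0.063, and a sum of 57494 against 60058. Heart markers were near background: of the 6 measured, Nppa, Myl7 and Tnni3 were under 16 on both arrays, Myh6 and Nppb were below the floor, and Tnnt2 stood at 59.6 against 50.2, with a summed intensity of 152 against 124. In brown fat, where Cox7a1 and Cox8b are also made, the defining gene is Ucp1, and it was below the floor at 22.7 against 17.3. Of that list Elovl3 and Dio2 were under 16 on both arrays, Ppargc1a was below the floor, and Cidea alone was above it, at 637 against 529, giving a sum of 695 against 590. Of 5 measured white fat markers, Adipoq, Plin1 and Lep were under 16 on both arrays, Cfd stood at 21.0 against 27.8 and Fabp4 at 61.2 against 99.4, with a sum of 115 against 158. The part of the muscle markers in the isoform values was not tested. In bulk tissue, fewer cells of a type and less RNA per cell cannot be told apart.

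Other pairs of a muscle and a common form gave a mixed picture. Ckmt2, the mitochondrial creatine kinase of striated muscle, stood at 162 against 357, a difference of -1.14, and Ckmt1, the form of other tissues, at 2478 against 4190, a difference of -0.76. The glycolytic muscle forms Eno3 and Pgam2 differed by -1.56 and -1.32, and their common partners Eno1 and Pgam1 by -0.23 and -0.037. Slc25a4, the adenine nucleotide carrier that prevails in heart and muscle, hardly differed, at 2043 against 2130, and its partner Slc25a5 stood at 4266 against 4724. Relative to the common form, Cox6a2 moved by -1.99 on the log2 scale, Cox8b by -1.44, Eno3 by -1.34 and Pgam2 by -1.28. Ckmt2 moved by -0.38 and Slc25a4 by 0.087.

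Across all members, small differences in the downward direction prevailed. Of the 78 members above the floor, 60 (76.9%) were lower and 18 higher in the OSU-HDAC42 sample, where 52.8% of all 9560 genes above the floor were lower. The members' median was -0.20 and that of all genes -0.027. Most members are bright: above the 75th percentile of intensities, 58 of 74 members were lower, against 49.9% of 5595 genes. Without the muscle isoforms the median was -0.20 over 75 members.

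Larger differences were few. At least 1.5-fold lower were 9 members (11.5%), against 10.9% of all genes. All 9 were among the 74 members above the 75th percentile, where 7.33% of genes were that much lower, and none of these 74 was at least 1.5-fold higher, where 6.18% of genes were. At least 2-fold lower were 3 members, Cox8b, Cox6a2 and the complex I subunit Ndufs8, which is 3.85% against 3.17% of all genes. At least 2-fold higher were 2 members, Cox7a1 and Cox6b2, which is 2.56% against 1.88%. These were also the only members at least 1.5-fold higher, where 7.58% of all genes were. Cox7a1 passed the floor only on the OSU-HDAC42 array, so it entered these counts through the array on which it is high.

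**Figure D2:**
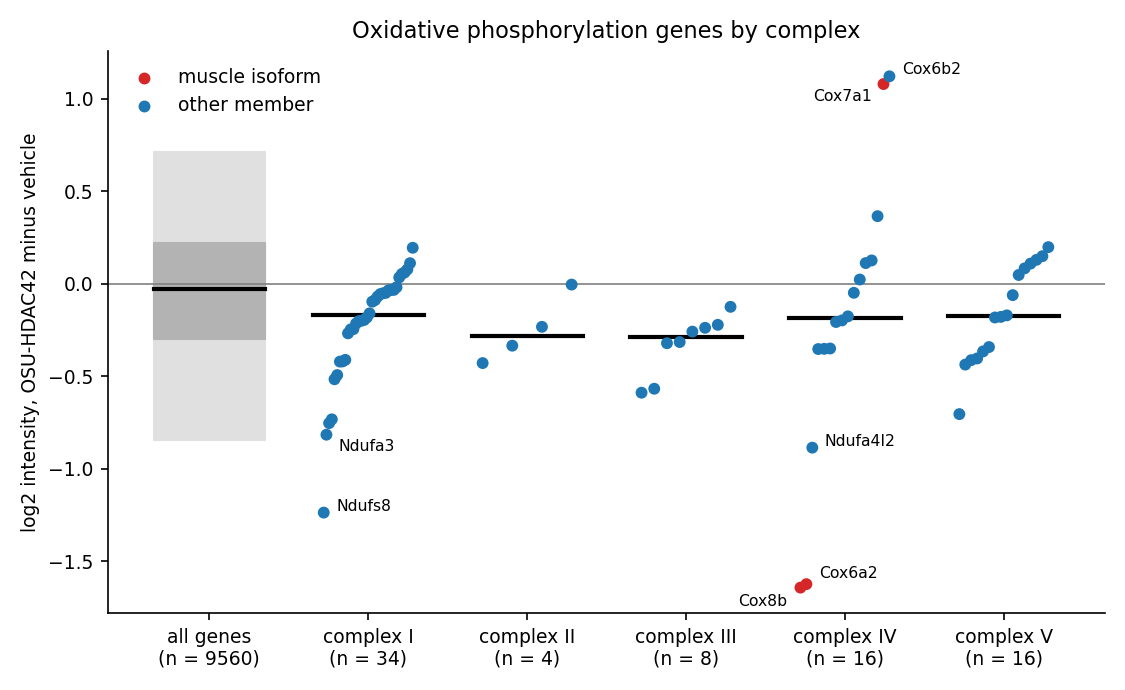
Log2 difference, OSU-HDAC42 minus vehicle, for the 78 members above the floor, by complex, with muscle isoforms in red and black lines at the medians. The grey column gives all 9560 genes above the floor, dark from the 25th to the 75th percentile and light from the 5th to the 95th, and the medians of all 5 complexes, from -0.29 to -0.17, lie under its median of -0.027.

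Complex I takes electrons from NADH. It had 28 of 34 members lower, with a median of -0.17 and a range from -1.24 to 0.19. The counts for each complex and its parts are to be read beside the 52.8% of all genes above the floor that were lower. Its catalytic core, the conserved subunits of the arm that oxidises NADH and reduces quinone, had 6 measured nuclear genes, and all 6 were lower with a median of -0.58. The 28 supernumerary subunits, which stabilise the complex, had 22 lower and a median of -0.078. The ranges overlap, from -1.24 to -0.16 for the core and from -0.82 to 0.19 for the others. With 1 array a group this difference has no test.

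The core gene with the most negative difference was Ndufs8, which encodes a subunit with 2 iron-sulfur clusters near the site where quinone is reduced. It stood at 165 against 390, 2.36-fold lower. Its neighbours in that arm, Ndufs3 and Ndufs7, stood at 717 against 1208 and at 567 against 941, differences of -0.75 and -0.73. The genes of the NADH-oxidising tip differed less: Ndufv2 stood at 1631 against 2183 (-0.42), Ndufv1, which binds the flavin, at 1010 against 1156 (-0.20), and Ndufs1, the largest iron-sulfur subunit, at 1172 against 1309 (-0.16). Each of these 6 genes rests on 1 probe set, so the probes cannot be set against each other within a gene.

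Among supernumerary subunits the most negative was Ndufa3, a small membrane subunit, at 907 against 1596 (1.76-fold lower). Ndufa5 and Ndufs6 followed with -0.52 and -0.49. The family named Ndufb, whose subunits lie in the membrane arm that pumps protons, stayed close to 0: 8 of 11 were lower, with a median of -0.051 and a range only from -0.25 to 0.078. The 12 Ndufa genes counted in complex I had a median of -0.22, with 10 lower. Ndufab1, the mitochondrial acyl carrier protein, was at 1447 against 1413. At the upper end were Ndufa9, at 3042 against 2816 (0.11), and Ndufv3, at 556 against 486 (0.19).

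**Figure D3:**
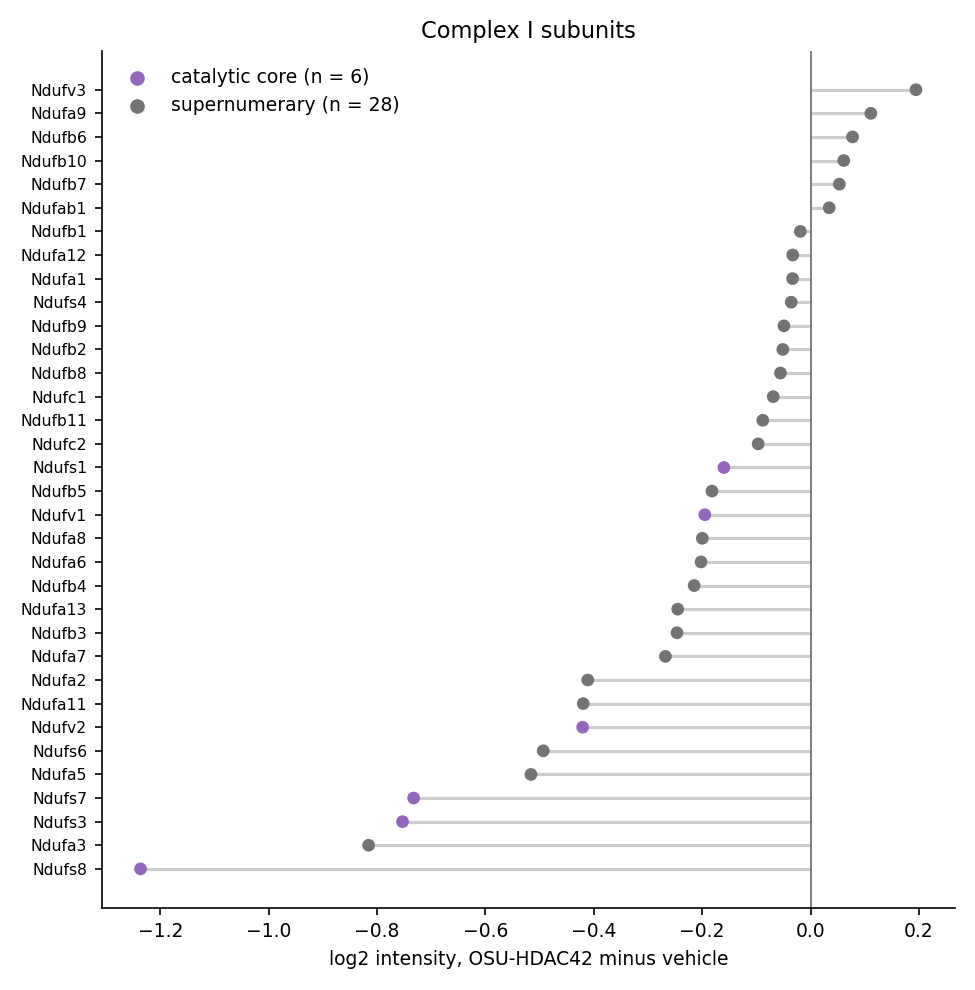
Log2 difference, OSU-HDAC42 minus vehicle, for the 34 complex I subunits, in order of the difference, with the catalytic core in purple. The 6 core genes run from -1.24 for Ndufs8 to -0.16 for Ndufs1, and the 6 genes above 0 are all supernumerary.

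Complex II, succinate dehydrogenase, also belongs to the citric acid cycle. All 4 subunits were lower, with a median of -0.28. The flavoprotein Sdha stood at 1046 against 1319 (-0.33) and the iron-sulfur subunit Sdhb at 374 against 503 (-0.43). The membrane anchors differed less, with Sdhd at 1223 against 1437 (-0.23) and Sdhc almost equal at 1469 against 1473. With 2 genes a side and amounts near the probe set spread of 0.29, the catalytic pair and the anchors cannot be told apart by size.

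Complex III hands electrons to cytochrome c. All 8 measured members were lower, with a median of -0.29 and a range from -0.59 to -0.12. Of the catalytic subunits, cytochrome c1 (Cyc1) stood at 760 against 1126 (-0.57) and the Rieske iron-sulfur protein Uqcrfs1 at 1089 against 1303 (-0.26). The small subunit Uqcr10 was the most negative, at 740 against 1112 (-0.59). The core proteins, which are related to processing peptidases, were Uqcrc1 at 722 against 901 (-0.32) and Uqcrc2 at 1629 against 1776 (-0.12). The other small subunits Uqcrq, Uqcr11 and Uqcrh differed by -0.31, -0.24 and -0.22. Cycs, which encodes cytochrome c itself, was not analysed here, because its probe sets name further genes.

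Complex IV reduces oxygen. Beside the muscle isoforms it had 13 members above the floor, 8 lower and 5 higher, with a median of -0.18. Of all genes above the floor, 52.8% were lower. Beside Cox6a1 at 0.37 and Cox8a at -0.20, the subunits of general use ran from -0.35 to 0.11: Cox6b1 differed by -0.35, Cox7c by -0.35, Cox4i1, the common form of the largest nuclear-encoded subunit, by -0.35, Cox6c by -0.21, Cox5b by -0.18, Cox7b by -0.049 and Cox5a by 0.11. Of the forms known from particular tissues or conditions, Cox4i2 and Cox7b2 were below the floor. Cox6b2, a form best known from testis, was 2.18-fold higher at 179 against 82.3. Ndufa4l2, a relative of the complex IV subunit Ndufa4 that is induced in low oxygen, was 1.85-fold lower at 403 against 744, while Ndufa4 itself stood at 4702 against 4627.

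Complex V makes ATP. It had 10 of 16 members lower, with a median of -0.17, where 52.8% of all genes above the floor were lower. In the F1 head and its stalk 4 of 5 genes were lower: the gamma subunit Atp5f1c that turns inside the head stood at 2662 against 3603 (-0.44), Atp5f1e at 3686 against 4876 (-0.40), the alpha subunit Atp5f1a at 1920 against 2473 (-0.37) and the catalytic beta subunit Atp5f1b at 5269 against 5978 (-0.18). Atp5f1d, the delta subunit, differed by 0.15. The peripheral stalk, which holds the head still, was split. Its subunit Atp5po, which confers sensitivity to oligomycin, was 1.63-fold lower at 1359 against 2214, Atp5pb differed by -0.061, and Atp5pf and Atp5pd differed by 0.083 and 0.13. Of the membrane part, Atp5me, Atp5mf and Atp5mpl differed by -0.41, -0.34 and -0.18, and Atp5mk, the proton-carrying ring subunit Atp5mc3 and Atp5mg by 0.048, 0.11 and 0.20. Atp5if1, the inhibitor of ATP hydrolysis, stood at 602 against 677.

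In 6 members more than 1 probe set was above the floor, which shows how far the values depend on the probes. Their SD between probe sets was 0.23. In Ndufv3, Ndufa9, Sdhd, Uqcrc2 and Atp5if1 both probe sets went the same way, with 0.19 and 0.44 for Ndufv3 and -0.17 and -0.21 for Atp5if1. In Ndufa7 they went opposite ways, at -0.27 for the brighter and 0.42 for the dimmer one.

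Other genes that serve the respiratory chain were compared with the members. Of 39 assembly factors above the floor, 25 were lower and 13 higher, with a median of -0.17. The most negative was Cox10, which takes part in making the heme of cytochrome c oxidase, at 41.3, under the floor, against 98.3 (-1.25). Next came Lrpprc, which keeps mitochondrial mRNAs stable, at 428 against 854, and the complex III factor Uqcc2 at 145 against 242 (-0.73). In the citric acid cycle 10 of 15 genes were lower, with a median of -0.22, led by Pdhb of pyruvate dehydrogenase at -0.49, Idh3b at -0.45 and Ogdh at -0.44, whereas citrate synthase, Cs, stood at 781 against 761. Genes of protein import, carriers and the outer membrane lay nearer to 0: 18 of 30 were lower, with a median of -0.041, and the largest differences were Timm50 at -0.52, Tomm6 at -0.33 and Immt at -0.32. The outer membrane channel Vdac1 was at 9453 against 9624.

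Regulators of mitochondrial biogenesis had 10 of 15 genes lower, with a median of -0.30. The receptor Esrrg, with only the vehicle array at the floor, stood at 28.8 against 49.1 (-0.77), the mitochondrial RNA polymerase Polrmt, also under the floor with OSU-HDAC42, at 40.0 against 68.1 (-0.77) and the helicase Twnk at 184.5 against 256 (-0.47). The mitochondrial transcription factor Tfam was at 229 against 249. Ppargc1a, the best known coactivator of this programme, was below the floor at 18.1 against 24.5. All these lists were read against 52.8% of genes lower, and none was tested.

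**Figure D4:**
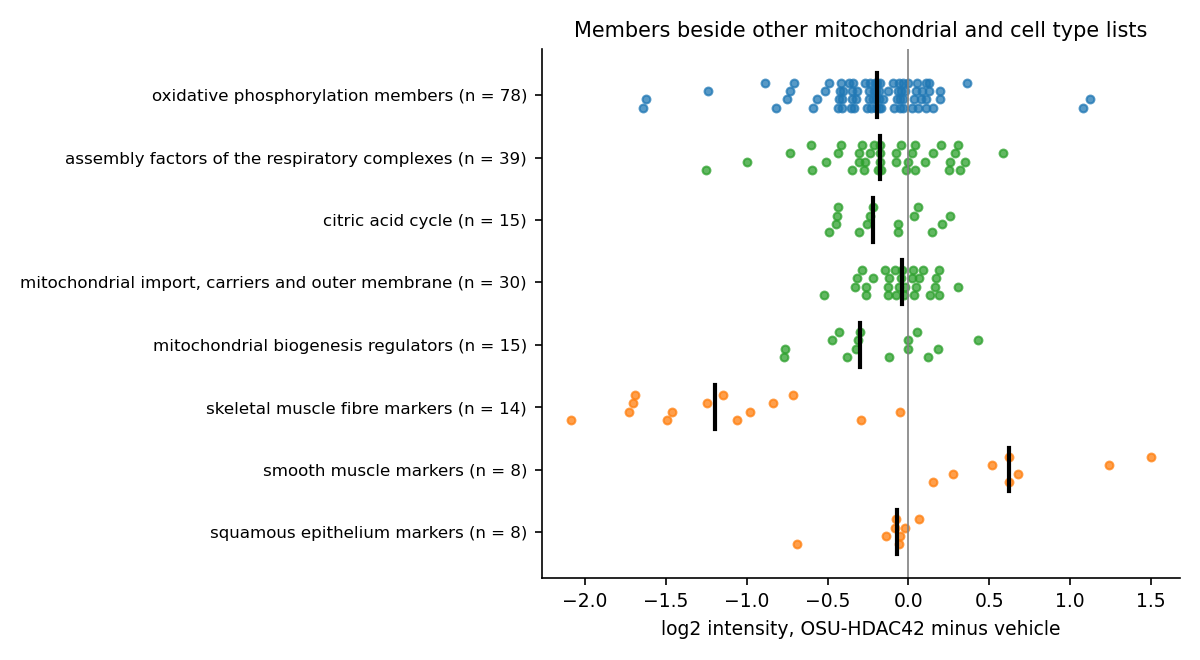
Log2 difference, OSU-HDAC42 minus vehicle, for the oxidative phosphorylation members (blue), other mitochondrial lists (green) and cell type markers (orange), 1 point per gene above the floor, with black lines at the medians. Median differences were -0.20 for the members, -0.041 for import and carriers, -1.19 for skeletal muscle fibre markers and 0.62 for smooth muscle markers.

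The promoters of the members were searched for motifs known from genes of the respiratory chain and from muscle, in the 250 bases before the start on both strands. A promoter was found for 72 of the 81 members, and the background is the 11700 measured genes with one. That background was not limited to genes above the floor, whereas 78 of the 81 members were above it. Whether the shares depend on brightness was not tested. The ETS core CCGGAAG, which the factor GABP recognises, was in 19 members (26.4%) and in 12.9% of the background. The palindromic core of the NRF1 site was in 10 members (13.9%) against 7.66%. The other motifs were about as frequent in the members as elsewhere: the E-box form CAGCTG in 11.1% against 12.8%, the TATA box in 11.1% against 8.06%, the YY1 core ATGGCGGC in 1 member (1.39%) against 1.75% and the MEF2 consensus in 1.39%, Cox6a2 alone, against 1.61%. The members with an NRF1 core had a median difference of -0.37 and those without of -0.18. With the ETS core the medians were -0.20 and -0.18, and with the TATA box, in 8 members, -0.34 and -0.18. The 8 members with an E-box of the form CAGCTG were Cox8b, Cox6a2, Atp5po, Ndufa5, Atp5f1e, Cox4i1, Ndufb8 and Ndufb10. Their differences ran from -1.64 to 0.061, with a median of -0.46 against -0.18 for members without this form. Cox8b and Cox6a2 had the largest differences of all members. Whether any motif goes with the differences was not tested.

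**Figure D5:**
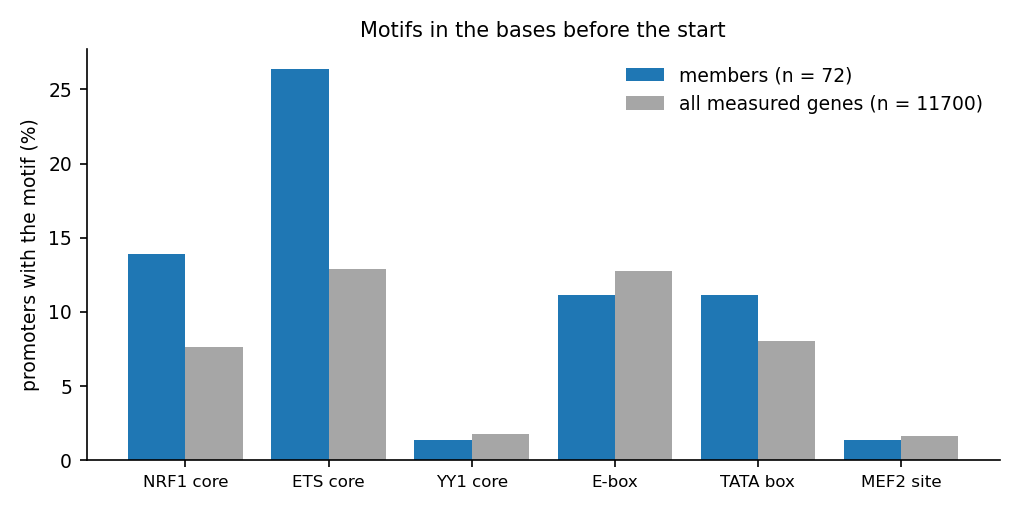
Share of promoters, in percent, with at least 1 match to each motif in the 250 bases before the start, for 72 members (blue) and 11700 measured genes (grey). Neither group was limited to genes above the floor. The ETS core was in 26.4% of members against 12.9% and the NRF1 core in 13.9% against 7.66%, while the E-box form CAGCTG was in 11.1% against 12.8%.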

How the data were processed

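Esophageal tissue of 1 OSU-HDAC42 and 1 vehicle sample was profiled. Each deposited value is the intensity of a probe set, taken as linear from its range. The submitters' processing notes name GCOS and RMA without saying what each did. How the authors scaled the arrays is not given in the sources used here, so a difference in total signal may have been scaled away. Intensities under 16 were raised to 16, for 28.4% (OSU-HDAC42) and 29.2% (vehicle) of probe sets, and log2 was taken. Of 31099 probe sets, 57 controls and 436 probe sets naming several genes were left out, and 20826 named 1 gene. The platform annotation was updated by gene ID to the RefSeq table of GRCr8, which matched all 81 members. Promoters are RefSeq's for GRCr8. The number of arrays limits the precision. Alternatives changed the scaling, the probe set, the raised value, the floor, the symbols and the muscle isoforms. The differences of single genes were tested on simulated arrays with known shifts, the counting on those shifts and the motif search on short typed sequences. Python 3.11.15 and pandas 2.3.3 were used. All members could be named, and of each other list the 3 genes with the largest differences above the floor, with further genes chosen after their values were seen. The members and lists were chosen with earlier results of these data known. Protein sequences were not used here.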

Additional observations from a re-analysis of the deposited data

How the results depend on the processing

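The summaries of all members and of the complexes, the muscle and common COX isoforms and 11 further genes were recomputed, and the other lists and the motifs were not. Of 307 values, 305 stayed within a tolerance. For single genes it was the probe set spread. That spread was divided by the square root of the number of genes for medians and multiplied by that of 2 for isoform pairs. For counts it was 1.5-fold. Both exceptions follow from their construction: averaging its probe sets moved Ndufa7 from -0.27 to 0.077, and without the muscle isoforms 1 member, Ndufs8, was at least 2-fold lower. Many values could not move, so 305 overstates the stability. The other raised values and the platform symbols repeated the main values, and a changed floor cannot move a single gene. Centring cannot move an isoform pair. The members' median ran from -0.23 with quantile normalization to -0.18 with each array centred, and the number of members lower from 58 to 62. The medians of the complex I core ran from -0.61 to -0.56, and the differences of Cox6a2 and Cox8b from -1.62 to -1.60 and from -1.65 to -1.62. Cox7a1 and Cox6b2 lay under the floor at the 75th percentile and gave no value there. No paired analysis was possible because 1 array per group leaves no pairs. Low intensity limits Cox4i2, Cox7b2 and Cox6c-ps1, which were below the floor on both arrays.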

Other observations

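A set of 9 probe sets names a member together with another gene, among them those for Cycs, Cox7a2, Uqcrb and Ndufs5, and was left out of all comparisons. All 9 were above the floor, 6 were lower and 3 higher after OSU-HDAC42, at a median of -0.18 and a range from -0.36 to 0.13. Which of the named genes they measure was not settled.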
